A study of Mus musculus with 15 samples.

Results

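Livers taken after ischaemia-reperfusion (I/R) were compared with livers of sham-operated mice on 10 of the series' 15 one-colour arrays, 5 in each group, chosen by the group in their labels. The preconditioned group of the same series took no part in the comparison. Every array carries total RNA from the liver of a C57BL/6 mouse, copied from random primers and labelled with Cy3, and reads mRNAs and long non-coding RNAs. I/R mice had the vessels of 70% of the liver clamped for 75 min, and blood flow was then restored for 2 h. In the sham group the abdomen was opened and the vessels at the liver hilum were handled but not clamped. Both groups received pentobarbital at 60 mg/kg, and the labels give no age, sex or genetic change. The clamp closed off only some of the lobes, and the labels do not say from which lobe the RNA came. The design text names 18 mice, 6 in each group. No label ties an array to a mouse, so the spread that p-values are measured against is that between arrays and could be technical.

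A clamp on the hepatic vessels cuts off oxygen and nutrients, and the cells lose ATP. When flow returns, oxygen radicals form, resident macrophages are activated and neutrophils enter, and surviving cells switch on genes of the hypoxia, heat shock and wound responses. The actin cytoskeleton, protein folding, iron uptake, sugar metabolism and general gene expression are all touched by this injury. Most of the named genes reported here come from those processes, and others from purine salvage, the lysosome and antigen presentation. Many of them are used as reference genes in studies of liver RNA.

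The files pair 15 of the 32699 tested probes with a gene, and each of these genes was read by 20 spots per array. All 15 are named, whatever their values. Among 11 gene lists drawn up for this tissue and injury, 9 held at least 1 of these genes. None of the 11 immediate early genes and none of the 10 inflammation genes in the lists could be named. The same held for all 34 genes of the 7 cell type marker lists (hepatocyte, Kupffer cell, neutrophil, endothelial cell, stellate cell, cholangiocyte and erythroid cell). The liver label was therefore not checked against defining markers here. In bulk liver RNA, fewer cells of a type and less RNA per cell cannot be told apart. Probe sequences were not used here, so signal from near-identical gene copies was not checked.

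Arrays lay on 2 slides, told apart by scan time. All 5 sham arrays shared slide 2 with I/R arrays 1, 2 and 3, while I/R arrays 4 and 5 were on slide 1. The 75th percentile of the log2 signal was 8.04 to 8.28 on the 8 arrays of slide 2, and 8.45 and 8.64 on the other 2. An array had 49.98% to 59.3% of its 60915 probes well above background, and no spot was saturated. Levels below are log2 signals above the array's own 75th percentile, so 1 unit is a 2-fold change, and a level is compared only for the same probe. Each gene was given a difference, I/R minus sham, from a limma fit over all tested probes, with Benjamini-Hochberg adjustment over all of them. It was called to have risen or fallen at an adjusted p under 0.05.

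The promoter sequences of Tfrc and Tuba1b are shown because these genes had the largest rise and the largest fall among the named genes with a promoter in the RefSeq table. Each run is the 250 bases before the start of transcription in build GRCm38.p6, read along the gene's strand, 5′ to 3′. The Tfrc run is chr16:32608646-32608895 on the plus strand, and the Tuba1b run is chr15:98934391-98934640 on the minus strand. Capitals mark matches, on either strand, to the hypoxia response element core (ACGTG or GCGTG), the TATA box (TATAAA), the CCAAT box (CCAAT) or the GC box (GGGCGG).
Tfrc promoter: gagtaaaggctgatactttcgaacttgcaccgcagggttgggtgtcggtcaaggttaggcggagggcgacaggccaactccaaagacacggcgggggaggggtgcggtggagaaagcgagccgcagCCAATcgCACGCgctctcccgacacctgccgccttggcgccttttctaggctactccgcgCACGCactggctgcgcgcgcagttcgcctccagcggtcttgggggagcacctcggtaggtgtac
Tuba1b promoter: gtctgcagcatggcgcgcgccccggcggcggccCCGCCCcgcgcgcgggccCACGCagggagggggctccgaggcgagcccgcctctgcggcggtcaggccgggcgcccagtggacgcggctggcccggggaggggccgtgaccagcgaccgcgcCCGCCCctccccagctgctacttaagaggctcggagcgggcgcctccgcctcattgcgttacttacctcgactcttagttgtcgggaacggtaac
The Tfrc run holds the hypoxia response element core in reverse (CACGC) at 117 and 64 bases before the start, beside a CCAAT box at 124. The Tuba1b run holds 1 such core, also in reverse, at 199 bases before the start, and GC boxes in reverse at 217 and 95. Another Tfrc window, not shown, holds hypoxia cores at 228, 134 and 42 bases before its own start and a GC box at 35. A match in either Tfrc window counts in the gene totals below. These letters are common. Of 32841 promoter windows of that length in the table, 38.6% hold the hypoxia core, 33.9% the CCAAT box, 32.7% the GC box and 12.4% the TATA box.

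A promoter was in the table for 13 of the 15 named genes, all but Actb and Hsp90ab1. The promoters of Actb and Hsp90ab1 were therefore not searched for any of these motifs. The hypoxia core was found in the windows of 7 of them, the GC box in 7, the CCAAT box in 5 and the TATA box in 3. No window of the 13 held a pair of heat shock units (GAANNTTC, in 6.70% of all windows) or the CArG box that binds serum response factor (in 1.47%). A match describes letters only, and no binding was measured.

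Of the 15 named genes, 2 rose after I/R (Actb and Tfrc), 7 fell (Tuba1b, Hsp90ab1, Ppia, Gapdh, Rpl13a, Nono and Tbp) and 6 did not pass the test. Among all tested probes, 28.5% were called, 13.1% as higher and 15.5% as lower in I/R. In 2 genes all I/R arrays lay above all sham arrays and in 8 all lay below, where 10.5% and 14.0% of all probes did so (24.5% in either direction). Those shares are over probes of all levels. They are also mostly over probes read by a single spot per array, where each named gene had 20. How the number of spots bears on the counts was not tested. The median level of the named genes was 4.41, where the brightest 10% of probes began at 4.31. The median difference was -0.15 over the 15 genes and -0.04 over all tested probes. The changes were small: none of the 15 reached 2-fold, and the largest, of Actb, was 1.53-fold.

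**Figure D1:**
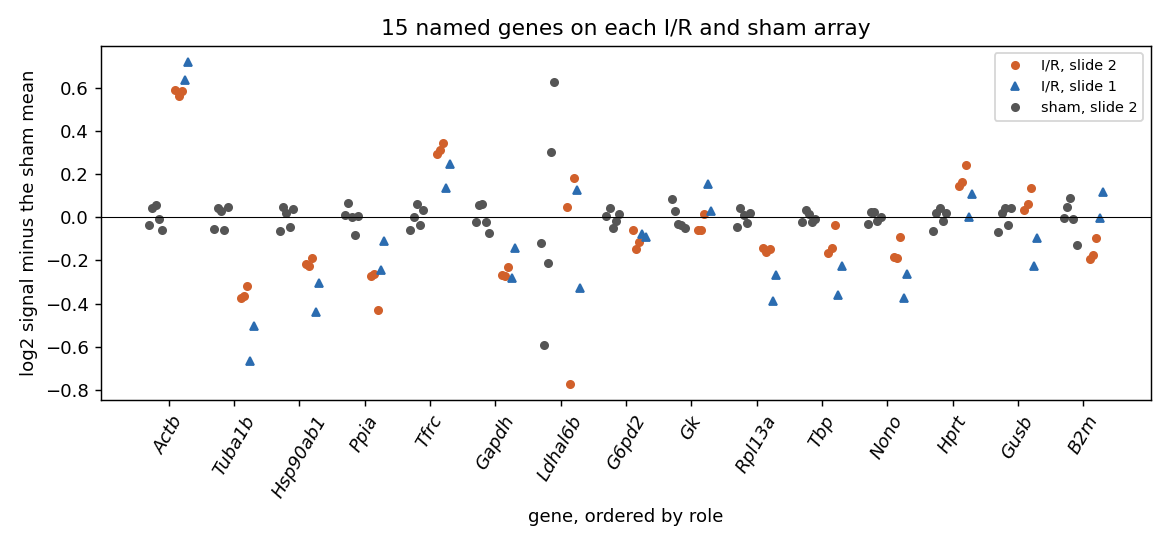
Log2 signal of the 15 named genes on each array, minus the gene's sham mean; circles are arrays of slide 2 (I/R orange, sham grey) and triangles the 2 I/R arrays of slide 1. The I/R points of Actb and Tfrc lie above all sham points, those of 8 genes lie below, and Ldhal6b scatters widely in both groups.

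The cytoskeletal genes went opposite ways. Actb encodes cytoplasmic beta-actin, the building block of actin filaments, and is a textbook target of serum response factor. On I/R arrays 1 to 5 its level was 6.05, 6.02, 6.05, 6.10 and 6.18. On sham arrays 1 to 5 it was 5.42, 5.50, 5.52, 5.45 and 5.40. Every I/R array lay above every sham array, and the gap between the groups was larger than the range within either. The means were 6.08 ± 0.063 and 5.46 ± 0.05 (SD, n = 5), and the difference was 0.62 ± 0.0501 (SE; 95% interval 0.51 to 0.73; limma adjusted p = 2.90e-05). By size of rise Actb stood at rank 1499 among the 32699 probes, with 4.58% of probes rising further.

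Tuba1b, an alpha-tubulin of the microtubules, had the largest fall of the named genes. Its level on the I/R arrays, in order, was 5.88, 5.89, 5.93, 5.59 and 5.75. On the sham arrays it was 6.20, 6.30, 6.28, 6.19 and 6.30. No I/R array reached a sham array, and the I/R arrays of slide 1 were the lowest. Tuba1b fell by 0.45 ± 0.0713 (SE), with a 95% interval from -0.61 to -0.29 and a limma adjusted p of 0.00136, and 8.17% of probes fell further. Of the 12 genes in the list of the actin cytoskeleton and serum response factor only Actb and Tuba1b were measured by name, 1 risen and 1 fallen.

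Iron uptake was represented by Tfrc, the transferrin receptor that brings iron into cells and a textbook target of hypoxia-inducible factor. Its I/R levels were 4.57, 4.59, 4.62, 4.41 and 4.52. In sham they were 4.22, 4.28, 4.34, 4.24 and 4.31. All 5 I/R arrays lay above all sham arrays, and I/R array 4 came closest to them. Tfrc rose by 0.27 ± 0.0539 (SE; 95% interval 0.15 to 0.39; limma adjusted p = 0.00486), a 1.20-fold change. Tfrc was the 1 member of the 13-gene hypoxia list, and of the 7-gene iron list, with a named probe. Another member of the hypoxia list, Pgk1, was read only by control spots. These were lower in I/R, by -0.14 at the 3′ end and -0.29 at the 5′ end.

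The protein folding genes fell. Hsp90ab1 is the constitutive cytosolic HSP90 chaperone. Its I/R levels were 5.60, 5.60, 5.63, 5.38 and 5.52, and its sham levels were 5.76, 5.87, 5.84, 5.78 and 5.86. The groups did not overlap, and the fall was 1.21-fold (difference -0.28 ± 0.0592, SE; limma adjusted p = 0.00672). It was the 1 measured gene of the 10 in the heat shock list, and the inducible HSP70 genes of that list could not be named.

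Ppia encodes cyclophilin A, a peptidyl-prolyl isomerase that helps proteins fold. On the I/R arrays its levels were 8.48, 8.49, 8.32, 8.51 and 8.64, and its sham levels were 8.76, 8.82, 8.75, 8.67 and 8.76. I/R array 5 stood just under the lowest sham array, and I/R array 3 was the lowest of all. The difference was -0.26 ± 0.0634 (SE; limma adjusted p = 0.0117). With Hsp90ab1, 2 of 6 genes in the list of isomerases and chaperones were measured and both fell.

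Gapdh, a central enzyme of glycolysis and a common reference gene, fell 1.18-fold. Its I/R levels were 8.34, 8.34, 8.38, 8.32 and 8.46, against 8.58, 8.66, 8.67, 8.58 and 8.53 in sham. The groups did not overlap, with 1 I/R array (array 5) close to sham array 5. The difference was -0.24 ± 0.0504 (SE; limma adjusted p = 0.00612). The other named member of the 13-gene glycolysis list was Ldhal6b, a lactate dehydrogenase-like retrogene. Its levels ran from -1.45 to -0.50 in I/R and from -1.27 to -0.05 in sham, and the groups overlapped in part. For Ldhal6b, 18 of 185 spots on the 10 arrays were not well above background, and its 20 spots differed among themselves with an SD of 0.13 to 1.88 per array. Its difference of -0.15 ± 0.252 (SE) had a 95% interval of -0.71 to 0.41 (limma adjusted p = 0.702), too wide to separate a fall from a rise. With the median of its spots in place of the mean, the difference was -0.38 and did not pass (limma adjusted p = 0.0684).

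G6pd2, a retrogene copy of the first enzyme of the pentose phosphate pathway, did not pass although its groups did not overlap. Levels ran from -1.02 to -0.92 in I/R and from -0.91 to -0.82 in sham. The difference of -0.10 ± 0.0433 (SE) was small, with a limma adjusted p of 0.123. It was the 1 measured gene of the 6 in the pentose phosphate list. Gk, the kinase that channels glycerol into glucose and fat synthesis, ran from 0.08 to 0.29 in I/R and from 0.09 to 0.22 in sham. Its groups overlapped, and the interval of its difference ran from -0.11 to 0.14 around 0.02.

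Genes of transcription, RNA handling and the ribosome fell by similar amounts. Rpl13a is a protein of the large ribosomal subunit. The I/R arrays read 4.11, 4.10, 4.11, 3.87 and 3.99, and its sham levels were 4.21, 4.30, 4.27, 4.23 and 4.28. Nono is a nuclear RNA-binding protein of paraspeckles. Its I/R levels were 3.44, 3.44, 3.53, 3.25 and 3.36, and its sham levels were 3.59, 3.65, 3.65, 3.61 and 3.63. In both genes every I/R array was below every sham array, and I/R array 4 was the lowest.

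Tbp, the TATA-binding protein that helps place RNA polymerase at promoters, had I/R levels of 0.83, 0.85, 0.96, 0.64 and 0.77. Its sham levels were 0.98, 1.03, 1.01, 0.97 and 0.99. I/R array 3 lay just under the lowest sham array. The differences were -0.22 ± 0.0595 for Rpl13a, -0.22 ± 0.0578 for Nono and -0.19 ± 0.0619 for Tbp (SE), with limma adjusted p of 0.0192, 0.0175 and 0.0463. These were the 3 measured genes of the 8 in their list, and all 3 fell. The Tbp call was the least stable of the named genes: it was lost when any 1 array other than I/R array 3 was left out. In those 9 fits the difference ran from -0.20 (without I/R array 2) to -0.14 (without I/R array 4), with limma adjusted p from 0.058 to 0.0988. Without I/R array 3 it was -0.22 (0.0157).

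The remaining genes, all 4 of a list on purine salvage, lysosome, antigen presentation and glycerol (Gk among them), did not pass. Hprt recovers purine bases. Its I/R levels were 6.39, 6.41, 6.49, 6.24 and 6.35, against 6.18, 6.26, 6.29, 6.22 and 6.26 in sham. I/R arrays 1, 2, 3 and 5 lay above all sham arrays and array 4 lay among them. The difference was 0.13 ± 0.055 (SE; limma adjusted p = 0.0993). Without I/R array 4 it was 0.17 and passed (limma adjusted p = 0.0288).

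Gusb, the lysosomal beta-glucuronidase, ran from 2.98 to 3.34 in I/R and from 3.14 to 3.25 in sham. B2m, the small invariant subunit of MHC class I molecules, ran from 8.02 to 8.33 in I/R and from 8.09 to 8.31 in sham. In both genes the I/R arrays lay on either side of the sham arrays. Their differences were -0.02 (95% interval -0.18 to 0.14) and -0.07 (-0.23 to 0.09), with limma adjusted p of 0.876 and 0.504. The I/R arrays of both genes split by slide. The slide 1 mean was 3.05 against 3.28 on slide 2 for Gusb, and 8.27 against 8.06 for B2m. On slide 2 alone the I/R minus sham differences were 0.08 for Gusb and -0.16 for B2m, and neither passed.

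**Figure D2:**
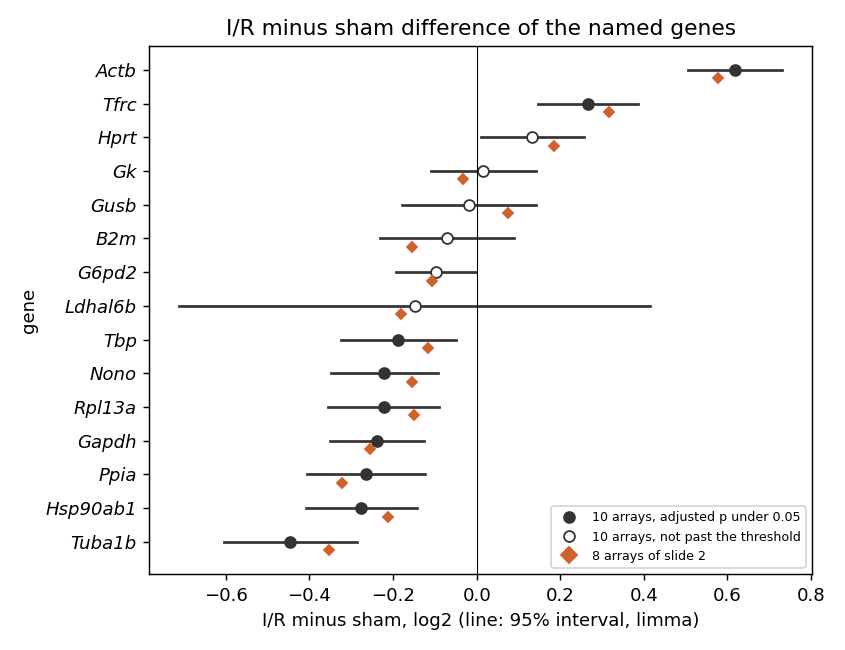
I/R minus sham difference of each named gene (log2) with its 95% interval from limma over 10 arrays; filled circles passed, open circles did not, and diamonds give the difference over the 8 arrays of slide 2. Actb (0.62) and Tuba1b (-0.45) lie at the ends, and Hprt is larger on slide 2 (0.19) than over all 10 arrays (0.13).

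The ratio of a pair of genes on the same array does not depend on any scaling by 1 constant per array (quantile normalization is not of that kind), so all 105 pairs of the 15 genes were compared by exact permutation tests. The I/R minus sham change of the log2 ratio passed in 62 pairs (Benjamini-Hochberg over the pairs), and in 53 the groups did not overlap. The pairs share the same 15 genes, so these counts are not separate results. Pairs of other probes were not compared, so no background share can be set beside them. With 5 arrays a side the smallest exact two-sided p is 0.00794. Actb rose relative to 13 of the other 14 genes, by 0.35 (against Tfrc) to 1.06 (against Tuba1b), each at that smallest p (0.0157 adjusted). Against Ldhal6b the change was 0.77 and did not pass (exact permutation p = 0.0317, adjusted 0.0513).

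Tuba1b fell relative to other fallen genes too. Its ratio changed by -0.17 against Hsp90ab1, -0.22 against Rpl13a, -0.23 against Nono and -0.26 against Tbp (exact permutation p = 0.00794, adjusted 0.0157, in each). It changed by -0.21 against Gapdh at the same p, while against Ppia the change of -0.18 did not pass (exact permutation p = 0.143, adjusted 0.211). The ratio of Rpl13a to Nono changed by -0.00155 (exact permutation p = 0.952). The 3 genes of gene expression kept close to each other: Rpl13a to Tbp changed by -0.03 (exact permutation p = 0.167), and Tbp to Nono by 0.03, with groups that did not overlap (p = 0.00794, exact, adjusted 0.0157). Ratios cannot say which gene of a pair changed.

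The I/R arrays of the 2 slides differed for several named genes. In 5 of the 7 fallen genes both I/R arrays of slide 1 lay below all 3 I/R arrays of slide 2, and in 1 (Ppia) both lay above. On slide 2 alone 3 genes rose and 6 fell, where 31.7% of all probes were called. Actb (0.58), Tfrc (0.32) and Hprt (0.19; limma adjusted p = 0.0234) rose. Tuba1b (-0.35), Ppia (-0.32), Gapdh (-0.26), Hsp90ab1 (-0.21), Nono (-0.15) and Rpl13a (-0.15) fell, while Tbp (-0.12) did not pass (limma adjusted p = 0.102).

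On slide 2 the arrays also differed in position: sham arrays 1 to 4 were in row 1, and sham array 5 and the I/R arrays in row 2. With row as a block 2 genes rose and 7 fell, and 29.3% of all probes were called. With slide and row both as blocks the contrast rests on 1 sham array against 3 I/R arrays. Then 8.72% of all probes were called, and of the named genes only Actb (0.64, limma adjusted p = 0.00403) and Tuba1b (-0.40, 0.0343) passed. The lone sham array is assumed to vary like the other arrays, from which the spread was taken. Among the calls lost, Ppia (-0.33) and Tfrc (0.28) had no smaller difference there than in the main setting. The differences of Hsp90ab1 (-0.25), Gapdh (-0.18), Rpl13a (-0.17), Nono (-0.16) and Tbp (-0.11) were smaller there. The part of position in the other calls was not tested.

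Scaling moved several gene calls. Under quantile normalization 5 genes passed, 3 risen and 2 fallen, where 27.4% of all probes were called. Gapdh (-0.12, limma adjusted p = 0.278), Ppia (-0.16, 0.0973), Rpl13a (-0.12, 0.093), Nono (-0.14, 0.064) and Tbp (-0.17, 0.0622) did not pass, and Hprt did (0.23, 0.0171). With each array's median as its reference 22.5% of all probes were called, and Tfrc (0.24, 0.0623), Rpl13a (-0.25, 0.0713), Nono (-0.25, 0.067) and Tbp (-0.21, 0.118) did not pass. The last 3 had larger differences there than in the main setting. Actb and Tuba1b passed in all 26 alternatives tried, the fit with the lone sham array among them, with differences of 0.58 to 0.71 and of -0.51 to -0.35.

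Across the whole array 9326 of 32699 probes were called. In I/R 4270 of these were higher and 5056 were lower, so rises made up 45.8%. When each array was scaled to the 75th percentile of the probes detected on every array, there were 6113 rises and 3789 falls, and rises made up 61.7%. Most calls were small: 7161 (76.8%) changed under 1.5-fold, 534 at least 2-fold and 51 at least 4-fold. Rises outnumbered falls among the changes of at least 2-fold, 356 to 178 (1.09% and 0.544% of all probes), but on slide 2 alone the counts were 387 and 365. For 44 of the 356 rises and 15 of the 178 falls the dimmer group was above background on no array, so that fold was not measured. With the dimmer group above background on every array there were 244 rises and 102 falls. These counts moved with the treatment of dim signal: normexp background correction left 142 rises and 72 falls, and a filter on all 10 arrays left 245 and 107. The middle 90% of all differences ran from -0.55 to 0.59. Of the 9326 calls, 7708 (82.7%) were also called in the same direction on slide 2 alone, and 0 had the opposite sign there. The slide 2 fit uses 8 of the same 10 arrays, all sham arrays among them. Much of that agreement is therefore built in, and it is not an independent repeat.

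**Figure D3:**
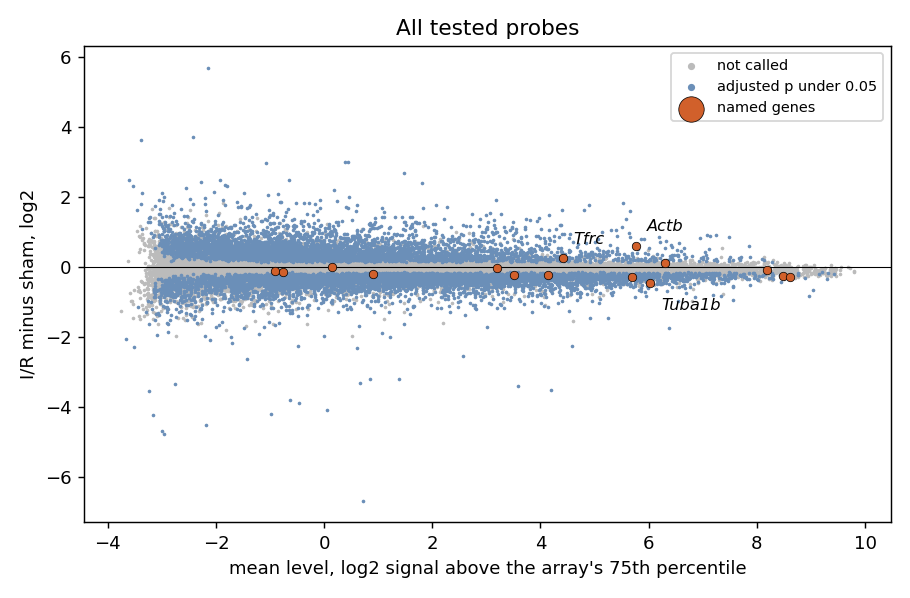
Each of the 32699 tested probes by its mean level over the 10 arrays (log2 signal above the 75th percentile) and its I/R minus sham difference (log2); blue points were called, and orange points are the 15 named genes. Actb, Tfrc and Tuba1b are marked, and all 15 genes lie within 0.62 of 0; the middle 90% of all probes ran from -0.55 to 0.59, and the far points include probes not well above background in 1 group, whose differences are only bounds.

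The 2 I/R arrays of slide 1 carried the strong rises more fully than the strong falls. On slide 2 alone 387 probes were called at least 2-fold higher, with a median difference of 1.23. The same probes stood at a median of 1.06 above the sham mean on I/R array 4 and 1.12 on array 5, and 90.2% and 92.5% of them lay outside the sham range. The 365 probes called at least 2-fold lower had a median of -1.26 on slide 2, but -0.46 on array 4 and -0.64 on array 5, with 52.3% and 58.6% outside the sham range. These probes were chosen on slide 2, so shrinkage on other arrays is built into the choice, and no test was made. Array and slide cannot be told apart there.

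The spread within groups bears on every call. The median SD of a probe was 0.123 over the sham arrays, 0.163 over the 5 I/R arrays and 0.112 over the 3 I/R arrays of slide 2. The median absolute difference between the I/R arrays of slide 1 and those of slide 2 was 0.186, close in size to the median absolute difference between I/R and sham, 0.196.

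In the main setting the balance of rises and falls changed with the level of the probe's signal. Probes were cut into 10 bins of equal size by mean level. In the bin of dimmest probes 16.6% were called and 57.0% of the calls were higher in I/R. In the brightest bin 31.5% were called and 21.8% of the calls were higher. The largest share called, 39.0%, was in bin 9, just below the brightest. Higher calls made up 22.8% of the brightest bin on slide 2 alone, 16.2% under median scaling and 39.9% with the percentile over detected probes. Under quantile normalization the lean towards falls was gone, with 51.7% of the brightest bin's calls higher. Quantile normalization gives every array the same distribution of signals. The dimmest bin turned more easily. Its calls were 50.3% higher under quantile normalization, 49.2% under median scaling and 45.5% on slide 2 alone. With normexp background correction the share was 32.5% in the dimmest bin and 25.8% in the brightest.

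**Figure D4:**
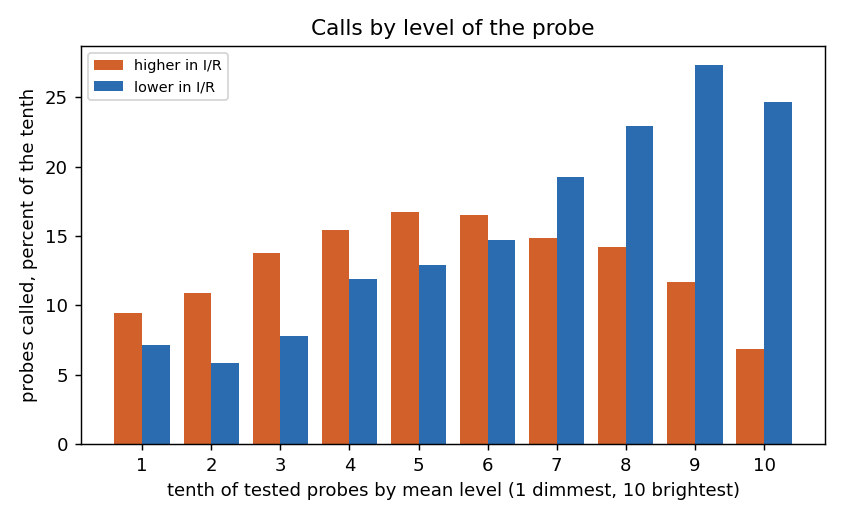
Share of probes called as higher (orange) or lower (blue) in I/R, in percent of each of 10 equal bins of the 32699 tested probes ordered by mean level from dimmest (1) to brightest (10). Higher calls outnumber lower ones in bins 1 to 6 and lower calls lead in the other 4; this turned in bin 10 under quantile normalization (463 higher, 433 lower), in bins 1 and 2 under normexp (142 and 295, 201 and 243), and in bin 1 on slide 2 alone (263 and 315) and under median scaling (246 and 254).

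Probes without a gene name made up the rest of the array, 32684 of those tested. The largest rises among those above background on all 10 arrays, with groups that did not overlap, were of ASMM10P041195 and ASMM10P011110. For ASMM10P041195 the I/R levels were 1.94, 2.05, 2.29, 1.61 and 1.53, and the sham levels were -1.08, -1.05, -1.88, -0.76 and -0.82. All I/R arrays lay far above all sham arrays, and sham array 3 was the lowest. For ASMM10P011110 the I/R levels were 2.08, 1.89, 2.12, 1.75 and 1.86, and the sham levels were -1.82, -1.73, -0.44, -0.79 and -0.53. The sham arrays spread more than the I/R arrays there (SD 0.665 against 0.155). The differences were 3.00 for both probes (limma adjusted p = 1.80e-05 and 5.58e-05).

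The largest falls by the same rule were of ASMM10P016002 and ASMM10P054730. ASMM10P016002 stood at 2.57, 2.53, 2.46, 2.25 and 2.35 in I/R and at 5.96, 5.88, 6.02, 5.96 and 5.93 in sham. That is an 11.4-fold fall with tight groups (limma adjusted p = 7.01e-09). ASMM10P054730 stood at 1.41, 1.52, 1.29, 2.59 and 2.64 in I/R and at 5.41, 5.52, 5.24, 5.10 and 5.15 in sham. Its I/R arrays split by slide, with those of slide 1 higher, and the fall was 10.5-fold overall (limma adjusted p = 3.05e-05). None of these probes was matched to a gene here.

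Detection was all or none for some probes: 80 were detected on every I/R array but no sham array, and 17 the other way round. For such a probe only a lower bound of the change can be given. It sets the mean of the bright group against a floor on each dim array, the lowest signal well above background there or the probe's own, whichever was higher. The bound reached 2-fold for 6 of the 80, at most at least 12.1-fold, and for 7 of the 17, at most at least 5.49-fold.

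Of the 378 tested probes named as lincRNAs (long intergenic non-coding RNAs), 60 (15.9%) were called, 40 higher and 20 lower in I/R, against 28.5% of all probes (13.1% higher and 15.5% lower). That balance turned on slide 2 alone (34 and 59, where 31.7% of all probes were called) and with slide as a block (39 and 67). The largest rises were of humanlincRNA1518-_P1 (1.33, limma adjusted p = 8.20e-05) and mouselincRNA0413-_P1 (1.27, 0.00405). The largest falls were of humanlincRNA0635+_P1 (-1.27, 0.00609) and mouselincRNA1011+_P1 (-1.10, 0.000832).

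The arrays also carry control spots near both ends of Gapdh and Pgk1 (phosphoglycerate kinase, a glycolytic enzyme), 10 per end and array, outside the fit; Pgk1 was added once its spots had been seen. The 3′ spots of Gapdh read 7.12, 7.10, 7.14, 7.28 and 7.38 in I/R and 7.58, 7.64, 7.67, 7.58 and 7.44 in sham, a fall without overlap (difference -0.38; exact permutation p = 0.00794, 0.0119 adjusted over 6 values). The 5′ spots ran from 6.43 to 6.71 in I/R and from 6.61 to 6.72 in sham (-0.04; exact permutation p = 0.643). Spots for the rat and human forms of Gapdh, also on these arrays and well above background on all of them, did not repeat that split. The rat spots differed by -0.33 at the 3′ end and -0.25 at the 5′ end, and the human spots by -0.08 and -0.20, with no test made. For the mouse spots the 3′ minus 5′ value of Gapdh was lower in I/R, 0.58 ± 0.134 against 0.93 ± 0.0728 (SD, n = 5; exact permutation p = 0.00794, 0.0119 adjusted). On slide 2 alone the mouse 3′ spots differed by -0.46, the 5′ spots by -0.05 and the 3′ minus 5′ value by -0.41.

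Pgk1 showed another pattern. Its 3′ spots differed by -0.14 and its 5′ spots by -0.29, both without overlap (exact permutation p = 0.00794, 0.0119 adjusted). Its 3′ minus 5′ value changed by 0.15, with overlapping groups (exact permutation p = 0.127). On slide 2 alone the 3′ spots of Pgk1 differed by -0.15, the 5′ spots by -0.18 and the 3′ minus 5′ value by 0.04. The values of these ends stand beside the fall of the Gapdh probe (-0.24), and their part in it was not tested.

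**Figure D5:**
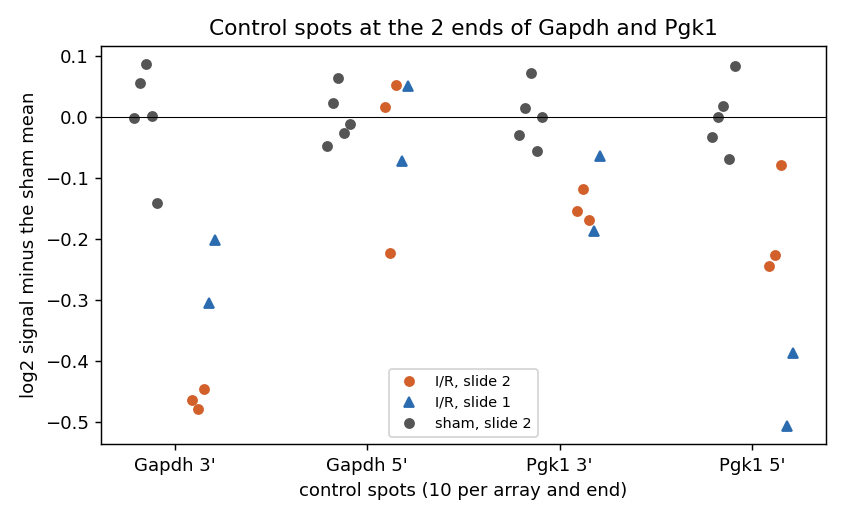
Log2 signal of the control spots at the 3′ and 5′ ends of Gapdh and Pgk1 on each array, minus the sham mean (mean of 10 spots per end); circles are slide 2 (I/R orange, sham grey), triangles I/R arrays of slide 1. The Gapdh 3′ points of I/R lie below all sham points (difference -0.38), while the 5′ points overlap (-0.04).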

How the data were processed

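Total RNA of liver was hybridised to one-colour arrays, 1 array per deposited sample, per the labels' protocols; which mouse each sample came from is not stated there. The deposited files hold spot intensities from Agilent Feature Extraction 11.0.1.1, made with an mm9 grid with the software's own background correction already applied, per the file headers. What the authors did next is not stated in the labels used here.

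The processed signal was put on the log2 scale, and the 75th percentile of each array was subtracted. Of 61500 non-control spots, 300 spots of 15 negative-control probes were left out, as were 13 to 36 spots per array marked as outliers. Spots of a probe were averaged, which gave 60915 probes. Of these, 32699 (53.7%) were tested: these cleared background on 5 or more of the 10 arrays and kept an unmarked spot on each. Group means were fitted with limma 3.58.1 (R 4.3.3), leaving 8 residual degrees of freedom, and adjusted p-values for genes and probes are limma's. Tables were read with the data.table package (version 1.17.8) and drawn with matplotlib 3.10.9. Single values and ratios were tested by two-sided exact permutation over arrays. The number of arrays limits the precision.

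All genes whose probe carries a RefSeq accession are named (gene table GRCm38.p6, names only), with the 2 largest rises and falls of unnamed and of lincRNA-named probes, among called probes above background on all 10 arrays and with groups that do not overlap. The members and lists were chosen with earlier results of these data known. The fit was tested on simulated data.

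Alternatives covered scaling, background correction (normexp, offset 50, on median spot signals), filters, spot summary, moderation, slide, pairing and each array left out. The same replicate numbers do not pair the samples.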

Additional observations from a re-analysis of the deposited data

Results flagged for a closer look

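Within each group of 5 arrays, the array at either end was compared with its nearest neighbour relative to the group's range. This was done for 58 group values, and 5 stood apart, where chance marks about 1 group in 20.

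For ASMM10P041195, sham array 3 was the lowest of its group at -1.88, with the next at -1.08. Sham array 3 was also the lowest for mouselincRNA0413-_P1, at -2.49 with the next at -1.44. For humanlincRNA0635+_P1, I/R array 3 was the lowest at -0.473, with the next at 0.69. For mouselincRNA1011+_P1, I/R array 5 was the highest at -1.23, with the next at -1.82. The 3′ minus 5′ value of the Gapdh control spots was lowest for sham array 5, at 0.798 with the next at 0.95; sham array 5 is the 1 sham array in row 2 of its slide.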

How the results depend on the processing

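Across 26 alternatives none of the 15 genes and 8 probes named here that were called changed direction. Of the 9326 called probes, 1 changed sign under normexp and 11 with slide and row as blocks, none of them called there, and 0 of those tested under the other alternatives. Probes called numbered 9326 and ran from 7549 to 9590 with 1 array left out; only slide and array row as blocks together (2851) moved that count by over 1.5 times. The named genes called (9) numbered 5 under quantile normalization, 5 under median scaling, 2 with slide and row as blocks, and 8 to 9 with 1 array left out. The lincRNA-named probes called (60) numbered 106 with slide as a fixed block, 93 on slide 2 alone, 23 with slide and row as blocks, and 51 to 73 with 1 array left out. The blocks on row were chosen after seeing the data. With both blocks only sham array 5 shares a row and slide with I/R arrays, which leaves 1 sham array to set against 3; for the other changes the cause was not tested. A random slide block called 10138 probes (consensus correlation 0.334).

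Replicate numbers are shared between the groups, but deviations of same-numbered arrays correlated at -0.08, -0.05, 0.27, 0.25 and -0.36, and 3 of 10 arrays correlated best with their own number, so the numbers were not taken as a pairing. With a replicate block 7034 probes, 6 named genes and 57 lincRNA-named probes passed.

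The Tbp call was lost in 18 of 26 alternatives (adjusted p 0.0157 to 0.499 by limma). Rpl13a and Nono each lost theirs in 5, Gapdh, Ppia and Tfrc in 2, and Hsp90ab1 in 1, while Hprt gained one in 7. Dim probes limit the rest: the median standard error was 0.193 in the dimmest 10% of probes and 0.0656 in the brightest 10%.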

Other observations

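Consecutively numbered probes were weakly alike in their differences. Among 19201 pairs of probes with consecutive numbers, 1714 had both members called, 58.7% of them in the same direction, and the differences correlated at 0.057 across pairs, which are not independent replicates. In 11 pairs both members changed at least 2-fold, 8 of them in the same direction. Whether consecutive numbers mean neighbouring genes is not given in the sources used here.

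Classes of probe, told apart by their names, differed in how many were tested and called. Over all tested probes 28.5% were called, 13.1% as higher and 15.5% as lower in I/R. Probes whose names begin with humanlincRNA gave 23 higher and 14 lower calls of 211 tested (17.5%). Those with mouselincRNA gave 14 and 5 of 138 (13.8%), and those with LINCRNAEXON 3 and 1 of 29 (13.8%). Of the 234 tested probes with UP in an ASMM name, 43 were higher and 34 lower in I/R (32.9% called). On slide 2 alone 31.7% of all probes were called. Higher and lower calls there numbered 18 and 33 for humanlincRNA, 14 and 19 for mouselincRNA and 2 and 7 for LINCRNAEXON. For UP they numbered 45 and 38. The lincRNA-named probes were mostly dim: 20.6% of the 1836 on the array passed the filter on background. Those tested had a median level of -1.56. In bin 3 by level, which holds that value, 21.6% of all tested probes were called, 451 higher and 256 lower.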
